A study of Mus musculus with 4 samples.

Results

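The Ly6 family surface proteins described here are 7 genes: Ly6a, Ly6e, Ly6c1, Ly6c2, Ly6d, Ly6k and Thy1. They were taken by symbol from the 23480 genes of the count tables, of which 23383 had a symbol, and all 7 had an entry. The series holds 4 RNA-seq libraries of mouse T cells, 2 from cells under the Th9 condition and 2 from cells under the same condition with TL1A, a cytokine of the tumour necrosis factor superfamily. TLA1, the spelling in the sample labels, is read here as TL1A, the spelling in the title. The labels used here give no strain, age, sorting gate, dose or time, and nothing in them says that replicates came from separate animals or cultures. P-values below thus rest on the spread between libraries, and part of that spread can be technical. The p-values and SEs of the limma test draw partly on a trend over all genes, not only on the gene's own libraries. The members were selected on results of this same contrast, Th9 with TL1A against Th9, so their differences between the groups are a description. No p-value is given for them.

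Ly6 proteins are small and share the LU domain, a fold of finger-like loops held together by disulfide bonds. Most are tethered to the outer face of the membrane by a glycosylphosphatidylinositol (GPI) anchor, without a stretch that crosses the membrane, and they gather in the lipid rafts where Src-family kinases work. In T cells Ly6a (Sca-1) and the Ly6c proteins are known as markers of activation and memory and as genes that interferons induce, and Ly6e is known from thymocytes and from its effects on virus entry. Thy1 (CD90), the classical mouse T cell marker, has the same kind of anchor but an immunoglobulin fold, so it is a relative by anchor and not by domain. TH9 cells are CD4+ T cells that make interleukin 9 when they are activated with TGF-beta and interleukin 4.

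Of the members, 6 lie in the Ly6 cluster on chromosome 15 (coordinates in GRCm38.p6, the build called mm10 in the submitters' processing notes), within 350.01 kb. In the order of their coordinates they are Ly6d (74762056 to 74763567), Ly6k (74796874 to 74799968), Ly6e (74955025 to 74959904), Ly6a (74994877 to 74998031), Ly6c1 (75044018 to 75048920) and Ly6c2 (75108161 to 75112066). Thy1 stands apart on chromosome 9, at 44043384 to 44048579. Ly6c1 and Ly6c2 are near copies in their coding part. There, which of them a read is counted for depends on the few bases that differ. Over the 396 coding bases of each (the first numbered transcript of each gene in GENCODE M21), 387 bases were identical and 9 differed, with 0 gaps, which is 97.7% identity. The longest identical coding stretch was 188 bases. Coding exon 1, of 70 bases, holds 6 of the 9 differences. It is printed for both genes from the GRCm38 reference, both on the minus strand and read 5′ to 3′ (Ly6c1 chr15:75048442-75048511, Ly6c2 chr15:75111598-75111667), with the bases that differ in capitals.
Ly6c1 coding exon 1: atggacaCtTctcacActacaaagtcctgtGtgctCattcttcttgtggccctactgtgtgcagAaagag
Ly6c2 coding exon 1: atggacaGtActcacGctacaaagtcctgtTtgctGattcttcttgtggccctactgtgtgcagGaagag
Coding exon 2, of 117 bases, has 0 differences, so a read that falls inside it names neither gene. It is shown once, from Ly6c1 (chr15:75047353-75047469, minus strand).
Ly6c1 coding exon 2: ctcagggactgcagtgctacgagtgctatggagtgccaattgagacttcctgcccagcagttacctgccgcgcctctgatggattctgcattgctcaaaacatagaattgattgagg
Coding exon 3, of 209 bases, holds the other 3 differences (Ly6c1 chr15:75045402-75045610, Ly6c2 chr15:75108543-75108751, minus strand, differing bases in capitals).
Ly6c1 coding exon 3: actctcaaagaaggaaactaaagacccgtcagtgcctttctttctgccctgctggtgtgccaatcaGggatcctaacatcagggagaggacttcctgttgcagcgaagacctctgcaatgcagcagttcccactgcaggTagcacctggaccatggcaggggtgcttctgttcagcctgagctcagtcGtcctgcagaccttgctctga
Ly6c2 coding exon 3: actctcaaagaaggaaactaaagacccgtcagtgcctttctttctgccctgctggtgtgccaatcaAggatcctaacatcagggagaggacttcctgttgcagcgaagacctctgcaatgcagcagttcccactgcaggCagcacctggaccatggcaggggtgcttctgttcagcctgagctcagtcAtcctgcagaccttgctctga

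Over the whole Ly6c1 transcript, 252 of 795 windows of 50 bases (31.7%) and 114 of 745 windows of 100 bases (15.3%) also occurred without a change in the Ly6c2 transcript. Ly6a is the next closest member to the pair, with 82.0% coding identity to Ly6c1 and 81.7% to Ly6c2. Only 11 of 770 windows of 50 bases from Ly6a (1.43%) and 0 of 720 windows of 100 bases were found in Ly6c1. Ly6e is more distant, with 53.8% coding identity to Ly6a, and it shared 0 windows of 50 bases with Ly6a, Ly6c1 or Ly6c2. Outside the coding part the near copies diverge more. RefSeq windows from 250 bases before to 50 bases after the start were held for Ly6c1 and Ly6c2 among the members. For the pair of starts with the most identical bases, 208 aligned bases were identical, 58 differed and 68 were opposite a gap. Many of these gaps lie at the window ends, where the windows of the 2 genes are offset, so they are not all sequence differences. Motif letters were searched on both strands of these windows for 2 starts of each gene. The AP-1 motif TGANTCA, the interferon-gamma activated site TTCNNNGAA, the interferon-stimulated response element and the kappaB motif had 0 matches in all of them, which says only that these letters are not in these windows. Of 32851 promoter windows of the same length, 7.81%, 8.30%, 3.44% and 1.63% held these motifs, in that order.

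The libraries held 2979482 to 4041633 reads, recovered as whole numbers from the deposited CPM values (reads per gene scaled to the library total), and detected 12122 to 12534 genes. A count of 0 in a library therefore allows up to 0.742 to 1.01 CPM, the value of 3 reads, for counting error only. The labelled cell type was checked with marker lists. The 6 T cell markers with values summed to 2066 to 2225 CPM in the Th9 libraries and 2436 to 2520 CPM in the TL1A libraries. All 3 NK cell markers and both erythroid markers were at 0 in every library. Of the 4 B cell markers Ms4a1 was at 0, and the sum was 10.4 to 12.9 CPM in the Th9 libraries and 28.9 to 29.2 CPM in the TL1A libraries, most of it from Cd79b (6.19 and 12.9 CPM against 24.2 and 28.6 CPM). Of the 7 markers of monocytes, macrophages and neutrophils, some of which also carry Ly6c, Lyz2, Csf1r, S100a8 and S100a9 were at 0. The sum was 1.89 to 3.22 CPM without and 4.54 to 7.72 CPM with TL1A. With TL1A it came from Cd68 alone (0.990 and 1.58 CPM without, 7.72 and 4.54 CPM with). Itgam and Adgre1 were at 0 in both TL1A libraries, and Adgre1 stood at 1.98 and 0.316 CPM without. The 4 markers of endothelial and stromal cells, which can carry Ly6a and Ly6c1, summed to 33.4 to 35.4 CPM without and 36.7 to 48.3 CPM with TL1A, mostly from Pecam1, and Col3a1 was at 0. The 2 CD8 markers summed to 7.92 to 13.3 CPM without and 9.73 to 10.1 CPM with TL1A, and the 4 dendritic cell markers, with Siglech at 0, to 0.247 to 0.316 CPM and 1.62 to 3.36 CPM. The part of these marker differences in the values below was not tested. In bulk RNA, more RNA per cell and more cells that carry a transcript cannot be told apart.

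With TL1A, Ly6a and Ly6e were higher in both libraries, Ly6c1 was higher from a low level, and the values of Thy1 overlapped between the groups. Ly6c2, Ly6d and Ly6k were at or near the limit of detection. Of the 7 members, 4 passed the filter on low counts (Ly6a, Ly6e, Ly6c1 and Thy1), and 2 of these, Ly6a and Ly6e, were called higher by limma at an adjusted p under 0.05. None was called lower. Among all 10324 genes tested, 118 were called (1.14%), 92 of them higher with TL1A (0.891%). In 3 of the 4 members tested, both TL1A libraries lay above both Th9 libraries, which held for 1968 of all genes tested (19.1%). Since the members were chosen from this contrast, nothing is read from these counts.

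**Figure D1:**
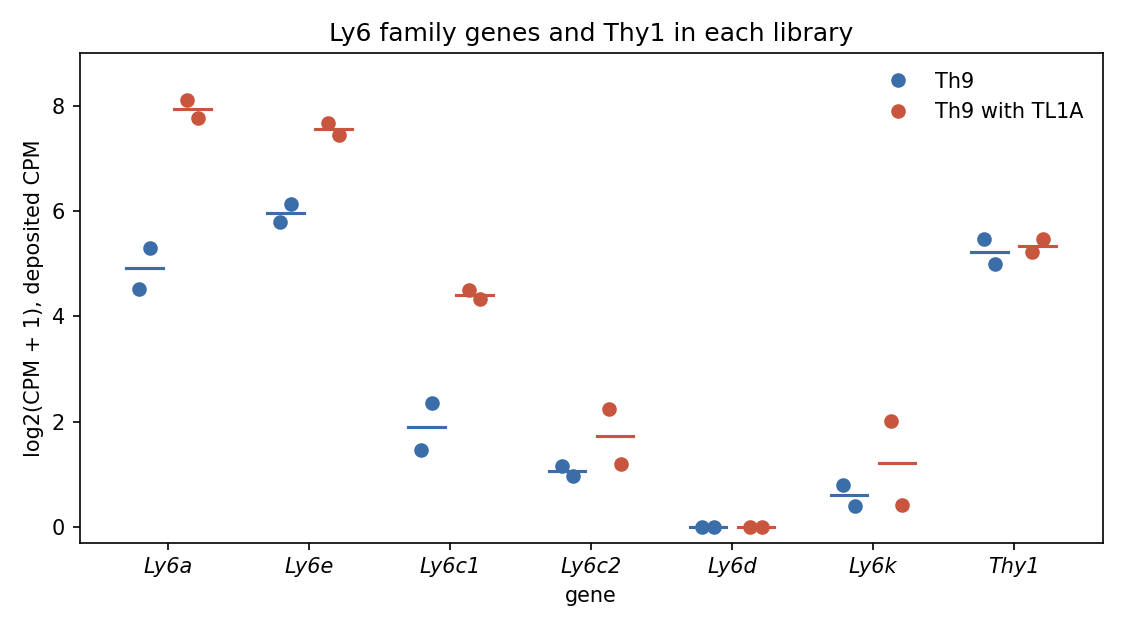
Level of each Ly6 family gene and Thy1 in every library, as log2(CPM + 1) of the deposited values. Points are the 2 libraries of a group and lines their mean. The groups are apart for Ly6a, Ly6e and Ly6c1, overlap for Thy1, and Ly6d is at 0 throughout.

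Ly6a encodes Sca-1, the stem cell antigen 1 that is also carried by activated T cells. It stood at 21.8 and 38.5 CPM in the Th9 libraries (88 and 122 reads) and at 277 and 217 CPM in the TL1A libraries (824 and 670 reads). The lower TL1A library was well above the higher Th9 library, so the groups did not overlap. The means were 30.1 ± 11.8 CPM and 247 ± 41.8 CPM (SD, n = 2 each). The log2 fold change was 3.13 ± 0.29 (SE), an 8.73-fold difference and ranked 15 from the highest among the 10324 genes tested. Fold changes of the main test are on the log2(TMM-scaled CPM + 1) scale. Alternatives with another pseudocount, edgeR, DESeq2 or limma voom are on scales of their own. The Ly6a interval lies within the long noncoding gene Gm28068 (74966931 to 75043885), which was not analysed here, and the library kit does not mark strand.

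Ly6e, a GPI-anchored protein of thymocytes and many other cells, was the member with the most reads in the Th9 libraries. It stood at 54.4 and 69.5 CPM without TL1A (220 reads in each) and at 203 and 173 CPM with it (605 and 534 reads). Both TL1A libraries were above both Th9 libraries. The means were 61.9 ± 10.6 CPM and 188 ± 21.0 CPM (SD, n = 2 each), with a log2 fold change of 1.68 ± 0.23 (SE), a 3.21-fold difference. It ranked 140 from the highest. With the second Th9 library left out, Ly6e no longer passed, at a larger log2 fold change of 1.91 and an SE of 0.22. Such a fit has 1 library in an arm, which is assumed to vary like the other group, here and wherever a library is left out below.

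Ly6c1 and Ly6c2 encode the chains recognised as the Ly6C antigen, which marks monocytes and subsets of memory T cells. Ly6c1 stood at 1.73 and 4.10 CPM in the Th9 libraries (7 and 13 reads) and at 21.5 and 19.1 CPM in the TL1A libraries (64 and 59 reads). The TL1A libraries lay close together and above both Th9 libraries. The means were 2.92 ± 1.68 CPM and 20.3 ± 1.65 CPM (SD, n = 2 each), with a log2 fold change of 2.58 ± 0.56 (SE), ranked 29 from the highest. Its SE was the widest of the 4 members tested, and it did not pass the threshold. This SE draws partly on the trend for genes of like level, so it does not show the spread of Ly6c1 alone. Ly6c1 was called under 4 of its 15 alternatives: scaling by relative log expression, a pseudocount of 4, DESeq2 and the replicate block. Ly6c2 did not pass the filter. Its Th9 libraries held 5 and 3 reads (1.24 and 0.947 CPM) and its TL1A libraries 11 and 4 reads (3.69 and 1.30 CPM). The second TL1A library was only just above the first Th9 library. Over the pooled reads of each group, 8 of 7208903 without TL1A and 15 of 6060669 with it, the ratio was 2.23 with an exact 95% interval of 0.888 to 6.07, which covers counting error only and includes a ratio of 1.

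The sources used here do not give how the authors' counting treated reads that fit both copies, so the split of reads between Ly6c1 and Ly6c2 is uncertain. Ly6c1 held 7 of the 12 reads of the pair in the first Th9 library, 58.3% with an exact Clopper-Pearson 95% interval of 27.7% to 84.8%. It held 13 of 16 in the second, 81.2% (54.4% to 96.0%). With TL1A the share was 64 of 75, 85.3% (75.3% to 92.4%), and 59 of 63, 93.7% (84.5% to 98.2%). Ly6c1 was the larger part of the pair in each library. The intervals of both Th9 libraries overlapped those of both TL1A libraries, and a difference in the share between the groups was not tested. Pooled within groups the shares were 71.4% (20 of 28, 51.3% to 86.8%) and 89.1% (123 of 138, 82.7% to 93.8%). All these intervals cover counting error only, and the pooled ones leave out the spread between libraries. With the reads of both copies summed, an alternative chosen after seeing the data, the pair had a log2 fold change of 2.35 ± 0.51 (SE) and did not pass the threshold.

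**Figure D2:**
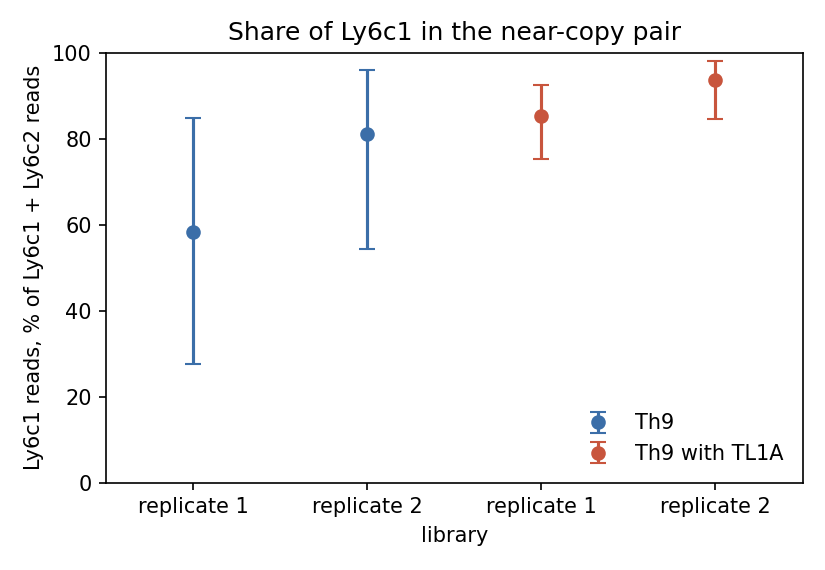
Share of Ly6c1 in the reads of Ly6c1 and Ly6c2 together, in percent, for each library. Bars are exact 95% binomial intervals, which cover counting error only. The share runs from 58.3% in the first Th9 library to 93.7% in the second TL1A library, with the widest interval where the pair had 12 reads.

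Ly6d, known from early B cell progenitors and stratified epithelia, had 0 reads in all 4 libraries. Ly6k, known from the testis, had 3 and 1 reads without TL1A (0.742 and 0.316 CPM) and 9 and 1 with it (3.02 and 0.325 CPM). Only the first TL1A library stood out, and the groups overlapped. The pooled ratio for Ly6k, 4 reads against 10, was 2.97 with an exact 95% interval of 0.858 to 12.99, for counting error only.

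Thy1 stood at 43.1 and 30.6 CPM in the Th9 libraries (174 and 97 reads) and at 36.2 and 43.2 CPM with TL1A (108 and 133 reads). The values overlapped. The means were 36.8 ± 8.79 CPM and 39.7 ± 4.89 CPM (SD, n = 2 each), and the log2 fold change was 0.21 ± 0.30 (SE), a 1.16-fold difference smaller than its SE. Thy1 was called under 0 of 14 alternatives, over which its log2 fold change ran from 0.02 to 0.40.

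Compared between genes, levels need a length. Per kilobase of the longest coding transcript in GENCODE M21, the mean Th9 levels were 31.6 ± 12.4 CPM per kb for Ly6a, 27.2 ± 4.66 for Ly6e and 21.2 ± 5.06 for Thy1 (SD, n = 2 each). These 3 neighbours lie within each other's spread. Ly6c1 followed at 3.46 ± 1.99 CPM per kb, Ly6c2 at 1.33 ± 0.249, Ly6k at 0.669 ± 0.381 and Ly6d at 0, and the SD ranges of Ly6c1 and Ly6c2 overlapped. With TL1A, Ly6a led at 259 ± 43.8 CPM per kb, followed by Ly6e at 82.5 ± 9.22, and both gaps were wider than the SDs. Ly6c1 at 24.1 ± 1.95 and Thy1 at 22.9 ± 2.82 CPM per kb were then alike within their spread. Ly6c2 and Ly6k followed at 3.04 ± 2.06 and 2.11 ± 2.41 CPM per kb, within each other's spread, and Ly6d was at 0. Per kilobase of all annotated exons together, Thy1 (13.3 ± 1.63) and Ly6c1 (12.1 ± 0.983) changed places in the TL1A libraries, so their order depends on the length used. The same holds for Ly6k and Ly6c2, which on that length stood at 0.638 ± 0.364 and 0.399 ± 0.0748 CPM per kb without and 2.02 ± 2.30 and 0.911 ± 0.618 with TL1A.

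Within 500 kb on either side of the outermost cluster members, RefSeq lists 55 genes, and 28 of them had values here. Beside the 6 members, 22 had values, of which 16 were at 0 in every library and 0 passed the filter, so no neighbour could be tested. The genes next to the members with values include Ly6i between Ly6e and Ly6a, with 0, 0, 1 and 1 reads over the 4 libraries, and Lynx1 beside Ly6d, with 4 and 3 reads without and 20 and 2 reads with TL1A. Ly6g6g, next to Ly6d, and Gml, next to Ly6k, were at 0, as was Ly6m on the other side of Ly6e. The most read of the other neighbours were Jrk (8 and 10 reads without, 14 and 3 with TL1A) and Them6 (6 and 7 without, 9 and 7 with). Among the genes with values in this window, Ly6e and Ly6a had the most reads, followed by Ly6c1. Ly6g and Ly6a2, the annotated genes that follow Ly6c2, were not analysed here.

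**Figure D3:**
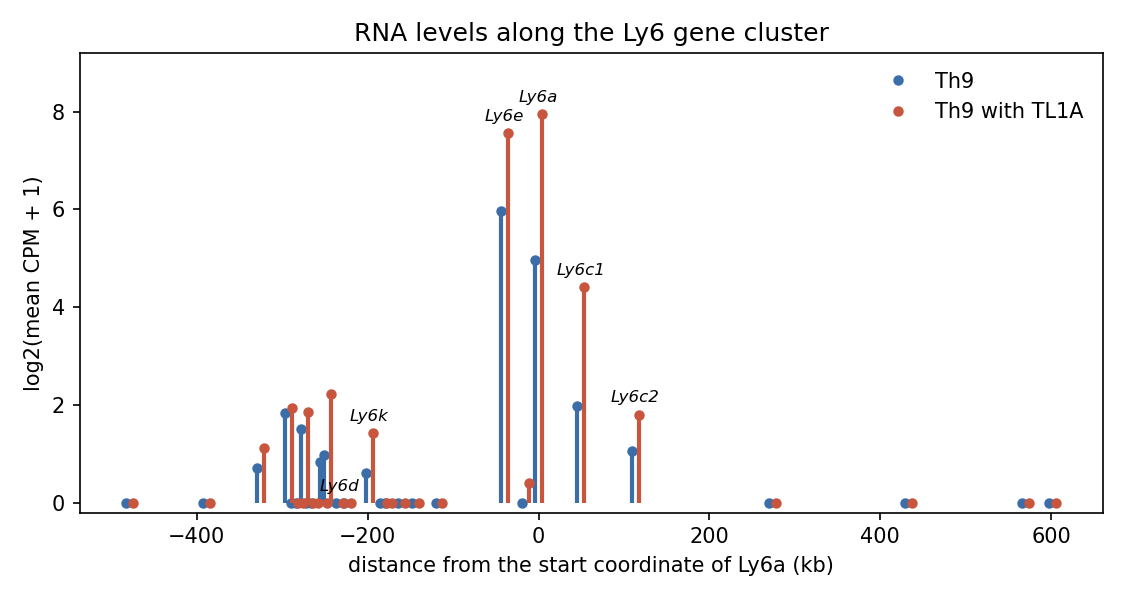
Mean level, as log2(mean CPM + 1), of the genes with values along the Ly6 cluster, by distance in kb from the start coordinate of Ly6a. The bars of the 2 groups are set slightly apart around each gene's position. Ly6e and Ly6a are the tallest bars in both groups, and 16 of the 22 other genes are at 0.

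The wider family and the machinery of the anchor were read from lists of related genes. These lists, and the 2 lists of interferon response and T cell receptor signalling below, were chosen with earlier results of these data known. Their p-values are thus a description. Of 37 other LU-domain genes with values, 28 were at 0 in every library and 1 passed the filter. This was Plaur, the GPI-anchored urokinase receptor, at 4.45 and 1.26 CPM without and 18.5 and 6.82 CPM with TL1A. Both TL1A libraries were higher, but the log2 fold change of 1.89 ± 0.69 (SE) did not pass (limma adjusted p = 0.210). Of 27 other GPI-anchored surface genes of lymphocytes, 13 were tested, 1 was called higher and 0 lower. Their median log2 fold change was -0.27 against -0.01 over all genes tested. At an unadjusted limma p under 0.05 there were 4 of the 13, 1 higher and 3 lower. Of all 10324 genes tested, 1722 were under that threshold in either direction. The gene called was Prnp, the prion protein, at 313 and 367 CPM without and 746 and 610 CPM with TL1A (log2 fold change 1.08 ± 0.19, limma adjusted p = 0.0201). That call was lost without any filter on low counts (adjusted p = 0.0709) and without the first Th9, second Th9 or first TL1A library (adjusted p = 0.0504, 0.0912 and 0.0694). Nt5e (CD73), an anchored enzyme that makes adenosine, had a log2 fold change of -0.65 ± 0.19 and did not pass (limma adjusted p = 0.127).

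The genes that build the GPI anchor and attach it to proteins gave 0 calls by limma among 27 tested of 31, in either direction. At an unadjusted limma p under 0.05 there were 0 of the 27, against 1722 of all 10324 genes tested. The median log2 fold change of the 27 was -0.22, with a range from -1.40 to 0.56. Pigk, the catalytic subunit of the transamidase that attaches the anchor and the most abundant of the list, stood at 114 and 177 CPM without and 101 and 88.0 CPM with TL1A. The difference, -0.49 ± 0.25 on the log2 scale (SE), did not pass (limma adjusted p = 0.357).

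Ly6a, Ly6e and the Ly6c genes belong to the genes that interferons are known to induce, so a list of interferon response genes was read beside them. Of 24 with values, 16 were tested, 1 was called higher and 0 lower, with a median log2 fold change of 0.17. Isg15, Ifit1, Ifit3, Oas1a, Oasl2, Mx1, Irf7 and Rtp4 did not pass the filter. They held 0 to 28 reads a library, with groups that overlapped. At an unadjusted limma p under 0.05 there were 5 of the 16, 4 higher and 1 lower. Of all 10324 genes tested, 1722 were under that threshold in either direction. The gene called was Gbp2, an interferon-induced GTPase, at 74.5 and 76.1 CPM without and 231 and 168 CPM with TL1A (log2 fold change 1.47 ± 0.22, limma adjusted p = 0.00952). Without the second Th9 library it did not pass (adjusted p = 0.120). Stat2, a transcription factor of interferon signalling, had a log2 fold change of 0.67 ± 0.22 and did not pass (limma adjusted p = 0.166). Irf8 pointed the other way, at -0.77 ± 0.17, and did not pass either (limma adjusted p = 0.0551). Of the other interferon-induced GTPases tested on this list, Gbp3 stood at 0.26 ± 0.91, Igtp at -0.26 ± 0.20 and Irgm1 at -0.70 ± 0.32. None of these passed.

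The list of proximal T cell receptor signalling holds the Src-family kinases and adaptors that work beside anchored proteins in lipid rafts. All 14 genes were tested, 1 was called higher and 1 lower, with a median log2 fold change of 0.30. At an unadjusted limma p under 0.05 there were 5 of the 14, 4 higher and 1 lower. Of all 10324 genes tested, 1722 were under that threshold in either direction. Cd5, a receptor that dampens T cell receptor signals, rose from 109 and 116 CPM to 257 and 210 CPM (log2 fold change 1.13 ± 0.20, limma adjusted p = 0.0204). Fyn, a Src-family kinase, fell from 302 and 249 CPM to 131 and 145 CPM (log2 fold change -0.90 ± 0.19, limma adjusted p = 0.0413). The groups of both genes did not overlap. Cd5 did not pass without a filter (adjusted p = 0.0595) or without the first Th9, second Th9 or first TL1A library (adjusted p = 0.0928, 0.120 and 0.0633). Fyn did not pass without a filter (adjusted p = 0.0861), with edgeR's quasi-likelihood test (adjusted p = 0.0509), or with any single library left out (adjusted p from 0.109 to 0.217).

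**Figure D4:**
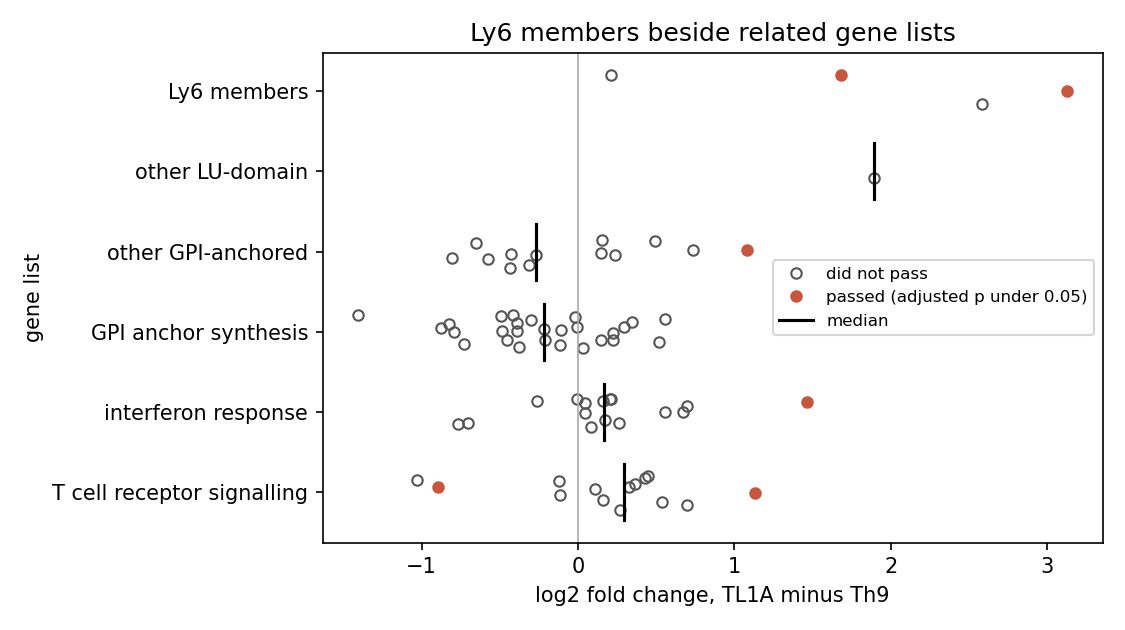
Log2 fold change, TL1A minus Th9, of each tested gene of the Ly6 members and of 5 related lists. Filled points passed limma's test at an adjusted p under 0.05, open points did not, and a black line marks the median of each related list. In the related lists 4 genes are filled (Prnp, Gbp2, Cd5 and Fyn), and the medians of the 4 lists with more than 1 tested gene lie between -0.27 and 0.30.

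The genes with the pattern over the 4 libraries most like that of a member were found by a root mean square difference. It was taken on log2(TMM-scaled CPM + 1) values centred on each gene's mean. With 4 libraries in 2 groups this is a description. For Ly6a they were Piwil2 (difference 0.145), Itga3 (0.165) and Serpinf1 (0.217), all low in the Th9 libraries and 20.7 to 39.0 CPM on average with TL1A. For Ly6e they were Tmem176a (0.0550), Rnh1 (0.0577) and Pde4b (0.0669), of which Rnh1 stood at 129 ± 15.2 CPM without and 390.5 ± 19.8 CPM with TL1A (SD, n = 2 each). For Thy1 they were Iqgap2 (0.00950), Mpv17l2 (0.0171) and Simc1 (0.0192), each with groups that overlapped.

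Under the alternative settings the members kept their order of fold changes, with Ly6a above Ly6c1 above Ly6e above Thy1 in each of the settings plotted. Ly6a was called in all 14 alternatives, at log2 fold changes from 2.68 (without the first Th9 library) to 3.58 (without the second). Ly6e was called in 13 of 14, at 1.46 to 1.91. Ly6c1 ran from 1.89 with a pseudocount of 4 to 3.07, the widest range of the 4. All alternatives refit the same libraries, and the members were chosen from this contrast, so these tallies are a description.

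**Figure D5:**
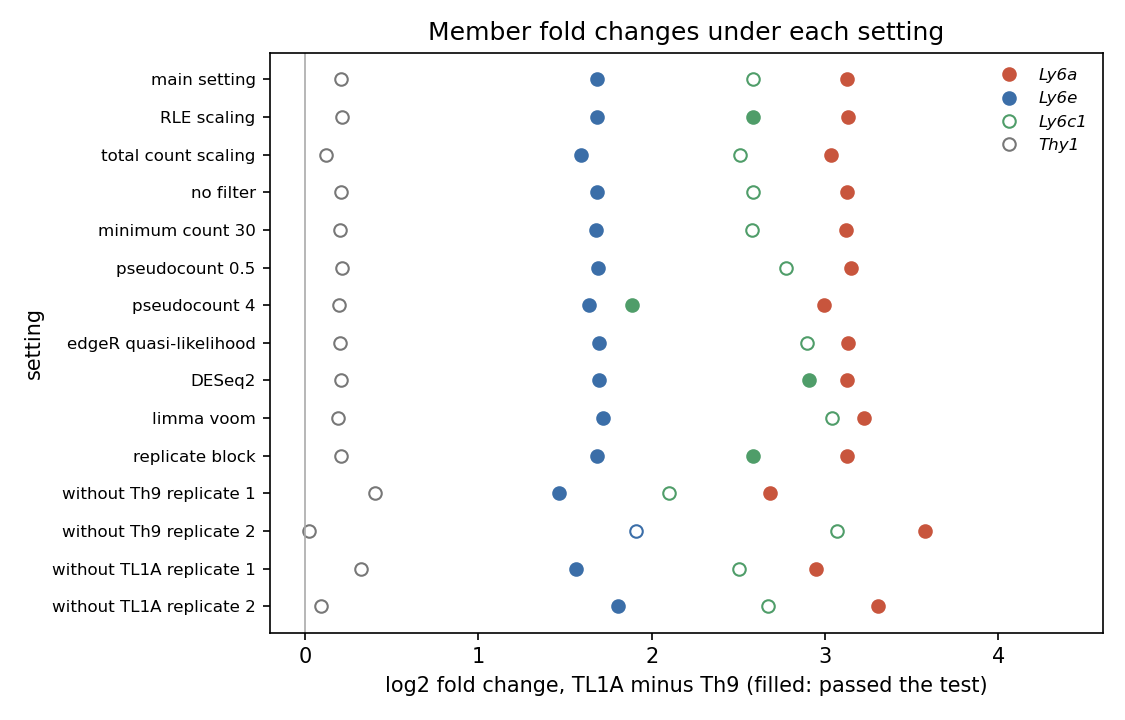
Log2 fold change, TL1A minus Th9, of the 4 tested members under the main setting and 14 alternatives. Filled points passed the threshold of each fit and open points did not. Ly6a is filled throughout, Ly6e in all but the fit without the second Th9 library, Ly6c1 in 4 alternatives and Thy1 in 0.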

How the data were processed

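RNA-seq of 4 libraries of mouse T cells was used, 2 under the Th9 condition and 2 with TL1A (TLA1 in the labels). Per the labels' protocols, cDNA was made from low-input total RNA with a SMARTer Ultra Low Input kit and sequenced on an Ion Torrent instrument. Per the submitters' processing notes HTSeq 0.5.4, edgeR and the mm10 build were used. The sources used here do not give the aligner, the gene annotation or the treatment of reads that fit several genes. The authors deposited CPM values, reads scaled to the library total, for each Entrez gene ID. All nonzero CPM values (100.0%) were whole multiples of the value of 1 read, within a tolerance of 0.01 reads, so whole reads were recovered.

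The main test was limma 3.58.1 (lmFit, eBayes with a mean trend, R 4.3.3) on log2(TMM-scaled CPM + 1). Genes were kept by filterByExpr with a minimum count of 10, and p-values were adjusted by Benjamini-Hochberg over all 10324 genes tested, with a threshold of 0.05. A count test on the recovered reads, edgeR 4.0.16's quasi-likelihood test, called 110 genes. DESeq2 1.42.0, limma voom, other scalings, filters and pseudocounts, a replicate block and leaving out each library were the other alternatives. On simulated counts for 10075 to 10097 genes the main test recovered 35.8% of 2-fold and 75.4% of 4-fold changes, with 4.8 false calls a run. These counts were drawn with the spread estimated from the same libraries and with 200 changed genes a run, as many raised as lowered. The rates hold for that setting only. Ly6 sequences came from GENCODE M21 and RefSeq (GRCm38.p6).

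The members and the related lists were chosen with earlier results of these data known. The genes named are all 7 members, every called gene of each related list or its most abundant gene where none was called, every other LU-domain gene that passed the filter, the neighbours of members in the chromosome 15 cluster, and the 3 tested genes most like Ly6a, Ly6e and Thy1. Nt5e, Stat2, Irf8, Gbp3, Igtp, Irgm1, Jrk and Them6 were named after their values were seen. So were the interferon response genes that did not pass the filter.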

Additional observations from a re-analysis of the deposited data

How the results depend on the processing

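The main test called 118 genes (92 higher, 26 lower). Scaling to the total count called 73 (52 higher, 21 lower), no filter on low counts 33 (25 higher, 8 lower) and DESeq2 275 (185 higher, 90 lower), while leaving out single libraries gave 19 to 155: 39 higher and 3 lower without the first Th9 library, 19 and 0 without the second, 87 and 68 without the first TL1A library, and 50 and 46 without the second. Of the members 2 were called, and 1 to 2 with a library left out. Of the related lists 4 genes were called, 1 without a filter and 0 to 3 with a library left out. With the replicate block 225 genes were called (147 higher, 78 lower), and 3 members, Ly6c1 being added. The labels used here do not say whether same-numbered libraries are pairs. Deviations of same-numbered libraries from their group means correlated at -0.011. With 2 libraries a group the second pair mirrors the first, so this single correlation cannot decide whether they are paired. Psmb8, which no setting called, changed sign without the first Th9 library (log2 fold change -0.025 against 0.20, limma adjusted p = 0.982), the lowest of -0.025 to 0.438 with a library left out. The cause of these shifts was not tested. Scaling to the total count moved the median of all genes from -0.01 to -0.10, and no member changed direction under any of the alternatives run. At these depths a count of 0 allows up to 0.742 to 1.01 CPM in a library, which bears on Ly6d, and Ly6c2 and Ly6k rest on 1 to 11 reads a library.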
